A study of Mus musculus with 8 samples.

Results

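RNA that came down with an antibody against CPEB4 from mouse striatum was set against RNA that came down with IgG of rabbit. The comparison uses 4 of the series' 8 arrays, a CPEB4 array and an IgG array from each of 2 tissue pools, and every difference was taken within a pool. The groups were CPEB4 RIP from HD mice, CPEB4 RIP from WT mice, Rabbit IgG RIP from HD mice and Rabbit IgG RIP from WT mice, with 1 array each. All mice were male and 7 to 8 months old. The labels name 4 mice, and the striatum was pooled by genotype, so an array stands for a pool and the spread between animals was not measured. The labels do not spell out HD or name an allele. RIP is RNA immunoprecipitation, in which formaldehyde ties RNA to protein before an antibody on beads pulls the protein out of the lysate. IgG of no stated target measures the RNA that sticks to beads and antibody.

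CPEB4 belongs to the cytoplasmic polyadenylation element binding proteins. These proteins bind a uridine-rich element in the 3′ untranslated region of mRNAs and, with partners, lengthen or shorten the poly(A) tail, which raises or lowers translation. In neurons they are known for holding mRNAs silent in dendrites and releasing them near synapses, and for binding mRNAs of other regulators of mRNA.

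The other 4 arrays hold RNA from an anti-CPEB1 precipitate and from the input lysate of the same pools, and they entered the model, the filter on low values and a few comparisons given further on. Of 17097 genes with a named probe set, 11345 had a mean above 4.23 on the log2 scale, the median of all probe sets, and were tested. Values over the tested genes spread more on the CPEB4 arrays (SD 1.68 in HD and 1.79 in WT) than on the IgG arrays (1.28 in HD and 1.42 in WT), so the arrays do not share 1 distribution, and no source used here says whether they were normalized together. The tissue label was checked on the input arrays. Medium spiny neurons are the main neurons of striatum, and 30 of their 32 listed markers were measured, with input medians of 7.01 in HD and 7.63 in WT. Pde10a (11.34 and 12.20) and Ppp1r1b (10.30 and 11.07) were high in the HD and WT inputs, while the dopamine receptor genes Drd1 (4.47 and 4.53) and Drd2 (5.05 and 4.56) lay near 4.23.

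Which mRNAs were higher with CPEB4 than with IgG was asked first. By limma 264 genes were higher, 2.33% of the 11345 tested, and 5 were lower, 0.0441%, at a Benjamini-Hochberg adjusted p under 0.05. The genes higher had a median log2 difference of 2.91 and a range of 1.72 to 5.44, in deposited log2 units. They include regulators of mRNA and its poly(A) tail (Pum2, Rbfox2, Cnot8), SUMO genes (Sumo2, Sumo3), synaptic genes (Grm5, Gabra2, Lin7a) and cytoskeletal genes (Brk1, Capza2). Without the model, 1627 genes were at least 2-fold higher in both pools (14.3%) and 113 at least 2-fold lower in both (0.996%). The filter uses the mean of all 8 arrays, so a gene could pass it through the CPEB4 arrays: for 42 of the 264 genes, and 230 of all 11345, the mean of the other 6 arrays was below 4.23. Such genes had to be high with CPEB4 to be tested, and they are pointed out below where they are named. The 4 values were fully separated, both CPEB4 arrays above both IgG arrays, in 29.3% of genes, and separated the other way in 37.0%.

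The pools gave related but unequal differences. Across the 11345 genes, which are not independent replicates, the HD and WT differences correlated at r = 0.574. Genes at 2-fold or more above IgG numbered 2540 in the HD pool and 2845 in the WT pool, against the 1627 that were so in both. Another 77 genes were 2-fold higher in HD and 2-fold lower in WT, and 81 the other way round. The median of all genes was -0.12 in HD and -0.06 in WT. The limma calls rest on the arrays of all fractions. With the 4 arrays of CPEB4 and IgG alone 0 genes passed by limma (2586 had an unadjusted p under 0.05), and the 264 had a median adjusted p of 0.0838. The differences themselves are the same by design in that fit. Leaving out either CPEB4 array, either IgG array or either input array also gave 0 calls by limma, with 1404 to 2923 genes at an unadjusted p under 0.05. After quantile normalization 8 of the 264 passed and the median of all genes was -0.24 in place of -0.06.

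**Figure D1:**
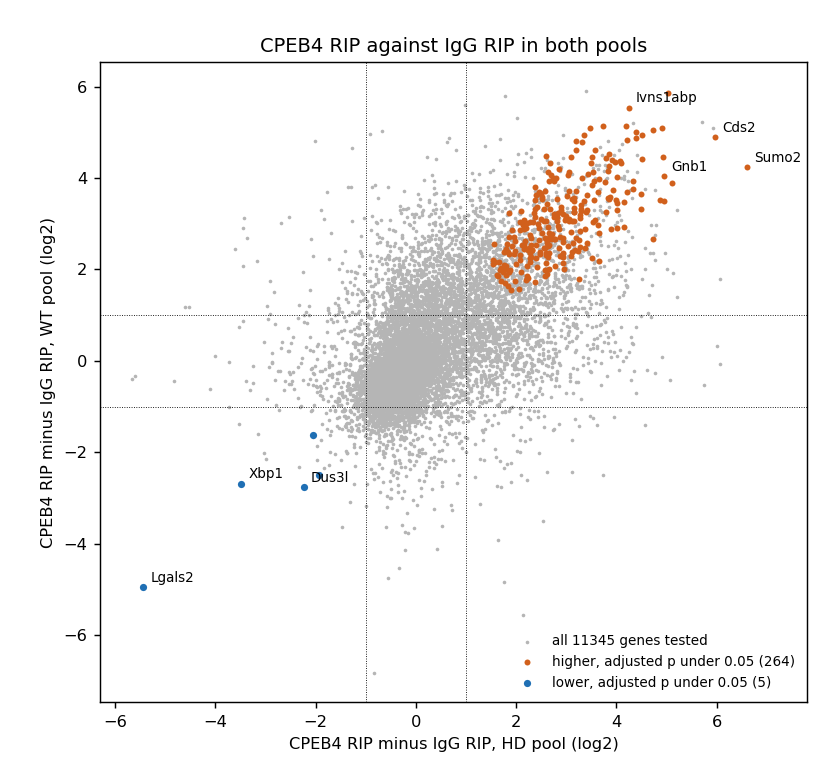
Each point is a gene, with the CPEB4 RIP minus IgG RIP difference (log2) in the HD pool on the horizontal axis and in the WT pool on the vertical axis, and dotted lines at 2-fold. The 264 genes higher by limma lie in the upper right corner and the 5 lower genes in the lower left, while grey points reach far along 1 axis alone.

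How far other probe sets of a gene gave the same answer was asked next, since a single probe set can carry its own error. Of the 264 genes, 113 had another probe set with a mean above 4.23, and in 52 of them (46.0%) at least 1 such probe set was also 2-fold higher in both pools. Over all 3407 genes with a second probe set this share was 22.9%, and over the genes not 2-fold higher it was 17.3%. In 21 of the 113 a second probe set lay below IgG in both pools, though in 0 by 2-fold. The brightest other probe set had a median difference of 1.24 for those 113 genes, where their own median was 2.98, and of 0.24 over all 3407 genes. Across the 3407 genes the 2 probe sets' differences correlated at r = 0.408, with both read from the same arrays. The probe set standing for a gene is its brightest, so it was not chosen at random. The mean of a second probe set also takes in the CPEB4 arrays. A dim one could thus pass 4.23 through high CPEB4 values, and its agreement is then partly set by the filter. Agreeing probe sets of Spred1, Ivns1abp, Zcchc3, Cnot8, Pum2, Slc35b4, Fbxo32, Capza2 and Ctnnb1 passed in that way, and how many did so in all was not counted.

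**Figure D2:**
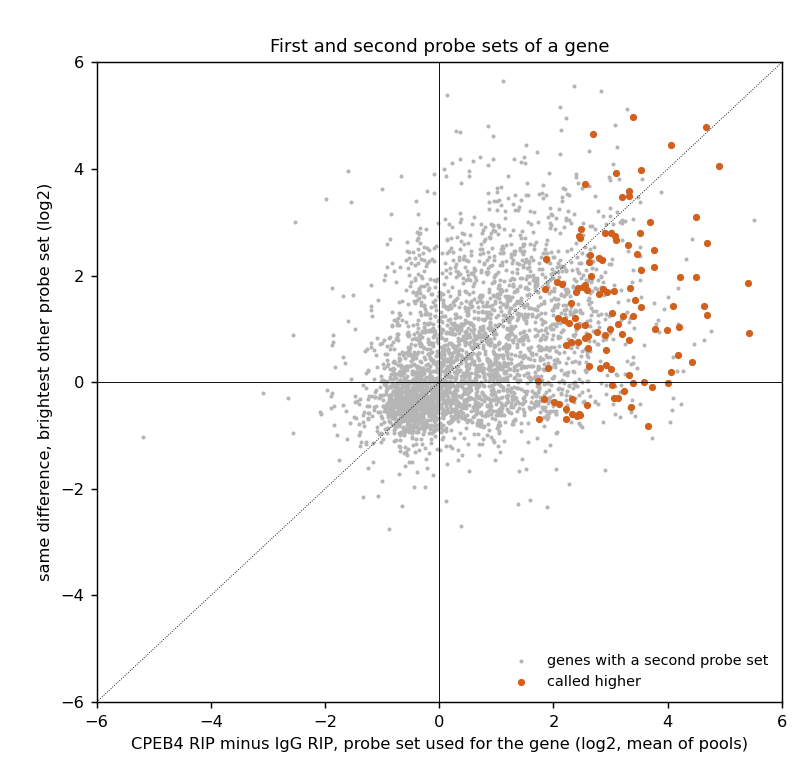
The CPEB4 RIP minus IgG RIP difference (log2, mean of both pools) of the probe set used for a gene is on the horizontal axis, and that of its brightest other probe set on the vertical axis. Of the 113 genes called higher (orange), 91 lie above 0 on the vertical axis, most of them below the dotted line of equal values.

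The genes with the largest differences that a second probe set shared were led by Cds2, an enzyme gene on the way from phosphatidic acid to phosphoinositides. It stood at 9.29 (HD) and 8.58 (WT) with CPEB4, against 3.32 and 3.68 with IgG, a log2 difference of 5.43 ± 0.53 (SE, n = 2 pools, limma adjusted p = 0.0351). Of its other 4 probe sets 1 was 2-fold higher in both pools, with differences of 2.51 in HD and 2.87 in WT. At the probe set used for Cds2 the input held more still, 10.24 in HD and 10.85 in WT. That probe set lay below the lysate with CPEB4 and far below it with IgG. The agreeing probe set went the other way, at 7.86 (HD) and 7.89 (WT) with CPEB4, against 6.04 and 5.47 in the inputs. Cds2 thus has no single place relative to the lysate.

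Sumo2, a small modifier protein related to ubiquitin, stood at 9.38 (HD) and 9.06 (WT) with CPEB4, against 2.79 and 4.83 with IgG (5.41 ± 0.75, adjusted p = 0.0406). Its second probe set differed by 1.68 in HD and 2.05 in WT. The mouse genome holds many near-identical copies of Sumo2, so which locus its probe sets read is uncertain. Ivns1abp, a kelch-repeat protein named for binding the influenza NS1 protein, stood at 7.90 (HD) and 9.17 (WT) with CPEB4, against 3.66 and 3.63 with IgG (4.89 ± 0.40, adjusted p = 0.0259). Its second probe set gave 3.54 in HD and 4.55 in WT. For Ivns1abp the other 6 arrays lay between 3.63 and 4.17, all below 4.23, so the gene was tested through its CPEB4 values alone.

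Spred1, which holds back signalling from Ras to MAP kinase, had 3 agreeing probe sets, the most of these 25 genes. It stood at 7.98 (HD) and 8.97 (WT) with CPEB4, against 3.79 and 3.84 with IgG (4.66 ± 0.38, 25.4-fold, adjusted p = 0.0259). The other 3 gave 5.02, 3.22 and 2.39 in HD and 4.57, 4.30 and 2.81 in WT. All 3 passed the filter through their CPEB4 values, so their agreement is partly set by it. Zcchc3, a zinc finger protein that binds nucleic acids, stood at 8.35 (HD) and 7.87 (WT) with CPEB4, against 3.42 in both pools with IgG (4.69 ± 0.60, adjusted p = 0.0368). Its second probe set gave 1.88 in HD and 3.33 in WT. Zcchc3 too passed the filter through its CPEB4 values.

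Genes of the cytoskeleton and of G protein signalling followed. Brk1, a subunit of the WAVE complex that drives actin branching, stood at 9.75 (HD) and 11.06 (WT) with CPEB4, against 4.65 and 7.16 with IgG (4.5 ± 0.39, adjusted p = 0.0263). Gnb1, a beta subunit of heterotrimeric G proteins, stood at 10.53 (HD) and 10.83 (WT), against 5.58 and 6.79 with IgG (4.49 ± 0.55, adjusted p = 0.0367). The groups did not overlap for either gene, and the WT IgG array read above the HD one for both. Capza2, which caps actin filaments, was 13.5-fold higher (3.76 ± 0.43, adjusted p = 0.0367). At the probe sets used, Gnb1 was below its input (11.46 in HD and 11.63 in WT), whereas Capza2 was above its own (8.73 and 8.94 with CPEB4, 5.16 and 6.4 in the inputs). The second probe set of Gnb1 lay above input, at 9.97 (HD) and 10.41 (WT) with CPEB4, against 8.09 and 8.57. That of Capza2 lay above input in WT (6.34 against 4.33) and below it in HD (5.31 against 6.49).

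The others of the 25 largest had log2 differences between 3.31 and 4.22. They were Fam32a, the apoptosis gene Siva1, the pseudouridine synthase gene Trub2, the nucleotide-sugar transporter gene Slc35b4, the chromatin ubiquitin ligase gene Msl2, the proteasome lid gene Psmd11, the membrane proteolipid gene Gpm6b, the clathrin adaptor gene Ap2b1, the F-box genes Fbxo31 and Fbxo32, the deadenylase gene Cnot8, the glucose transporter gene Slc2a1, the Ets repressor gene Erf, R3hdm4 and Gpd1l, with Pum2 and Rbfox2. Not every probe set agreed: Psmd11 had 1 at -0.74 in HD and 0.08 in WT and another at 0.96 in HD and -2.61 in WT, and R3hdm4 had 2 slightly below IgG in both pools. A second probe set of Trub2 gave 4.37 in HD and 4.55 in WT.

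**Figure D3:**
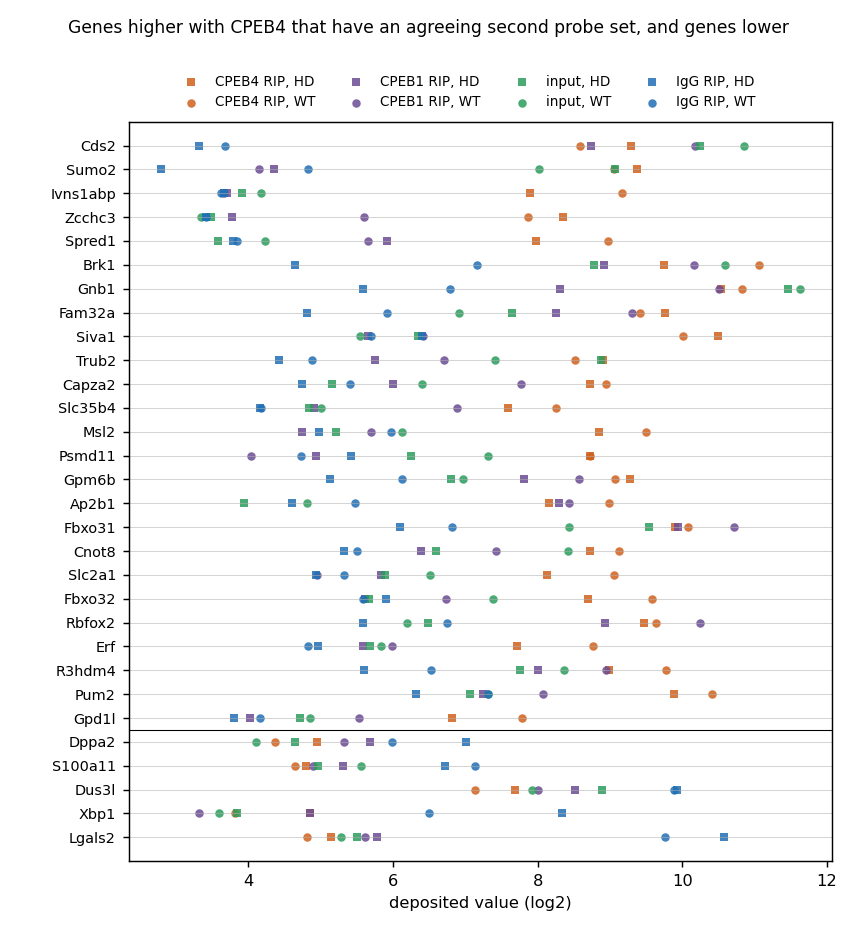
Deposited log2 value (horizontal axis) on each of the 8 arrays for the 25 leading genes with an agreeing second probe set and, under the line, the 5 genes lower with CPEB4. Squares are HD and circles WT, and colours give the fraction. For the 25 genes both CPEB4 values lie right of both IgG values, with the input near CPEB4 for Cds2, Gnb1 and Sumo2 and near IgG for Ivns1abp, Zcchc3 and Spred1.

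The same CPEB4 values were also set against the lysate. Of the 264 genes, 247 were above input in both pools and 230 by at least 2-fold, while 8 were below input in both. Over all 11345 genes 30.0% were above input in both pools, 11.9% by 2-fold, and 43.5% were below. The median CPEB4 minus input difference was 2.32 for the 264 and -0.15 for all genes. On IgG, 47 were at least 2-fold below input in both pools and 57 were below 4.23 in both, among them Cds2, Ivns1abp, Zcchc3 and Spred1, so the sizes of those differences depend on the array background. For 25 genes both IgG and both input values were below 4.23. The 264 were chosen for high values on the same CPEB4 arrays, so their place above input is no independent support.

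The share of 2-fold genes moved with abundance. When genes were split by input level into 5 equal parts, in the part with the most input RNA (6.80 to 13.2 on the log2 scale) 26.5% were 2-fold higher in both pools, with a median difference of 0.71, against 7.40% to 15.4% in the other 4 parts, with medians between -0.27 and -0.00. After quantile normalization the median of the top part was -0.15 and those of the other 4 ran from -0.46 to -0.05. The limma calls were spread otherwise, with 3.70% of the lowest part, 3.13% of the top part and 1.45% to 1.67% between. The filter has a part in the first of these, since 41 of the 84 calls in the lowest part passed it through the CPEB4 arrays, and without genes of that kind its share was 2.10%. Median input levels are therefore given for some gene classes further on. Among classes with at least 8 measured genes, those of the 12 with the highest shares ran from 5.02 to 6.72. All genes had 5.55, and the 276 genes of the synapse classes had 5.73. The part that abundance plays in a class was not tested.

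Among classes with at least 8 measured genes, the regulators that bind mRNA had the highest share of members 2-fold higher in both pools. The class held Pumilio, FMRP, ELAV, CELF, Rbfox, Musashi and related proteins, which set the splicing, stability, transport or translation of other mRNAs. Of 40 measured, 22 (55.0%, where all genes had 14.3%) were 2-fold higher and 1 was 2-fold lower, 5 were higher by limma and 0 lower. The median was 1.5 in HD and 1.45 in WT, where all genes had -0.12 and -0.06, and the median input level was 6.61. Of 15 members at 2-fold with a second probe set, 11 had one that agreed, which is 319 of 748 over all genes. The class median over both pools was 1.53 as deposited, 0.95 after quantile normalization and 1.10 under cyclic loess.

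The members higher by limma act in several ways. Pum2, a Pumilio protein that represses mRNAs by recruiting deadenylases, stood at 9.89 (HD) and 10.41 (WT) with CPEB4, against 6.32 and 7.32 with IgG (3.33 ± 0.29, adjusted p = 0.0263), and its other 2 probe sets gave 2.82 and 3.83 in HD and 4.16 and 3.38 in WT. Rbfox2, a splicing factor, stood at 9.47 (HD) and 9.64 (WT), against 5.58 and 6.75 with IgG (3.39 ± 0.48, adjusted p = 0.0411), with 2 of 3 further probe sets 2-fold higher in both pools. For both genes the CPEB4 and IgG values did not overlap.

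Mbnl1, a splicing factor of the muscleblind family, stood at 7.65 (HD) and 8.03 (WT) with CPEB4, against 3.89 and 4.1 with IgG (3.84 ± 0.54, adjusted p = 0.0411). G3bp1, a stress granule protein, stood at 7.59 (HD) and 7.42 (WT), against 4.29 and 4.1 with IgG (3.31 ± 0.25, adjusted p = 0.0259). Msi2, a Musashi translational regulator, had a smaller difference (2.52 ± 0.29, adjusted p = 0.0367), and its second probe set gave 0.15 in HD and 3.43 in WT. Celf2, which binds GU-rich mRNA, differed as much as Mbnl1, 3.84 ± 1.08, and did not pass (adjusted p = 0.139); its CPEB1 arrays read 4.96 in HD and 8.18 in WT.

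Atxn2, the ataxin-2 gene, was the member 2-fold lower, at 6.48 (HD) and 5.89 (WT) with CPEB4, against 8.57 and 7.00 with IgG (-1.60 ± 0.34, adjusted p = 0.0847), and was named after its values were seen. Another of its probe sets went the opposite way, 4.06 higher in HD and 3.88 higher in WT, so the gene has no single direction here. Ddx5, an RNA helicase gene outside the class, was also named after its values were seen and had the same split. The probe set used gave -3.02 in HD and -2.02 in WT, and the other gave 2.71 and 3.30. The probe set used passed the filter through its IgG values and the other through its CPEB4 values. The filter thus had a part in the split of Ddx5.

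**Figure D4:**
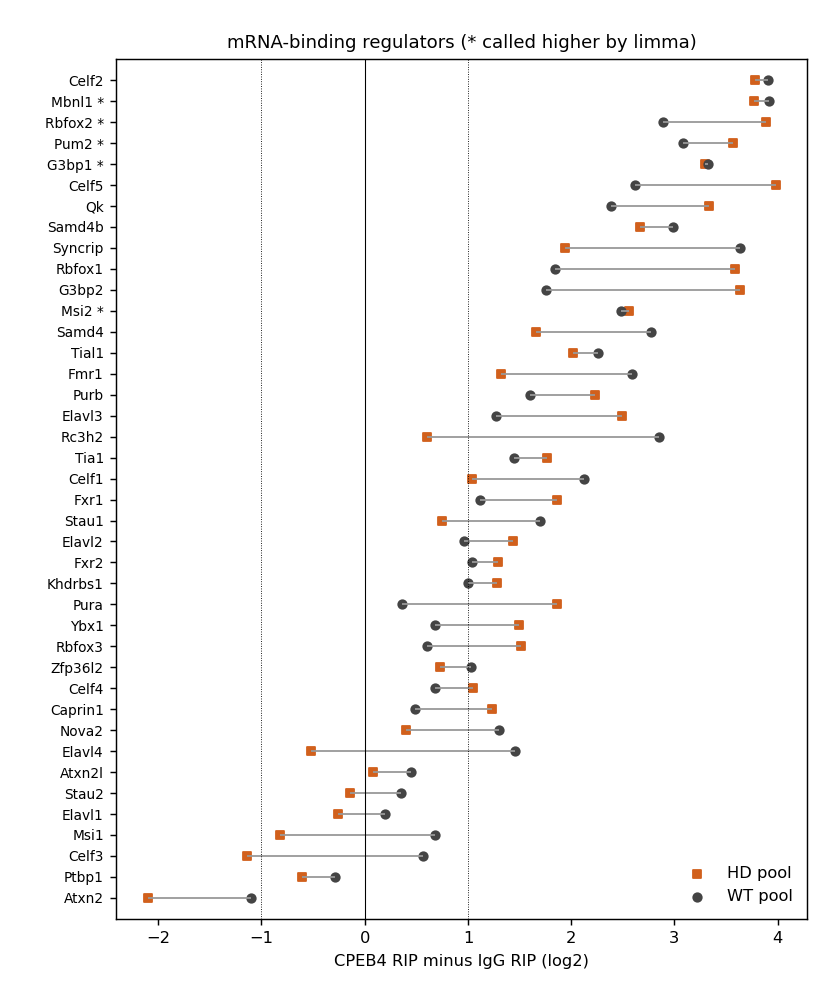
CPEB4 RIP minus IgG RIP (log2, horizontal axis) for the 40 measured mRNA-binding regulators, HD pool as squares and WT pool as circles joined by a line, with dotted lines at 2-fold and an asterisk for limma calls. In 33 members both pools lie above 0 and in 2 both lie below.

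Of the proteins that shorten poly(A) tails, the CCR4-NOT complex had 3 of 10 measured genes higher by limma (2.33% over all genes) and 4 (40.0%, against 14.3% over all genes) at 2-fold in both pools, with a median of 1.19 in HD and 1.11 in WT. Cnot8, a catalytic deadenylase subunit, stood at 8.73 (HD) and 9.13 (WT) with CPEB4, against 5.32 and 5.50 with IgG (3.52 ± 0.46, adjusted p = 0.0375), with a second probe set at 3.84 in HD and 1.74 in WT. Its paralog Cnot7 (3.05 ± 0.47, adjusted p = 0.0465) and the exonuclease subunit Cnot6 (3.0 ± 0.43, adjusted p = 0.0419) were higher as well. Tob2, an adaptor that brings the complex to mRNAs, differed by 2.59 ± 0.76 and did not pass (adjusted p = 0.149), and 1 of its 2 other probe sets was 2-fold higher in both pools.

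The remaining tail factors gave fewer calls. Pabpc1, the cytoplasmic poly(A) binding protein, was the member higher by limma among 10 poly(A) binding proteins and partners. Pabpc1 was also the 1 member 2-fold higher in both pools, a share below the 14.3% of all genes. It stood at 8.17 (HD) and 9.29 (WT) with CPEB4, against 4.66 and 4.83 with IgG (3.98 ± 0.33, adjusted p = 0.0259). Among 11 other deadenylases and nucleotidyl transferases 0 passed and 2 were 2-fold higher (18.2%), Noct (2.79 ± 0.57) and Pan3 (2.34 ± 0.53, tested through its CPEB4 values). Of 11 cleavage and polyadenylation genes 0 passed and 2 were 2-fold higher (18.2%). Among 19 genes of microRNA silencing and decapping, Tnrc6b, a partner of Argonaute, passed (2.87 ± 0.43, adjusted p = 0.0447) and 6 were 2-fold higher (31.6%), among them the decapping activator Ddx6 (3.52 ± 0.95, adjusted p = 0.131), whose 2 further probe sets both agreed. The class median of 0.28 in HD and 0.52 in WT came with 4 members lower in both pools. Over these 5 tail and silencing classes, with each gene counted once, 5 of 61 genes were higher by limma (8.20%) and 0 lower. At 2-fold higher in both pools were 15 (24.6%), where all genes had 2.33% by limma and 14.3% at 2-fold. The CCR4-NOT complex gave 4 of those 15 and the silencing class 6.

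Of the CPEB family, Cpeb3 was the 1 gene of 4 that was measured, and Cpeb1, Cpeb2 and Cpeb4 lay below 4.23. Cpeb3 stood at 9.51 (HD) and 9.73 (WT) with CPEB4, against 7.29 and 9.30 with IgG (1.33 ± 0.62, adjusted p = 0.264), and did not pass. Its second probe set gave 2.76 in HD and 3.71 in WT. The arrays measure mRNA, so they do not show how much CPEB4 protein the antibody brought down. Of 19 measured mRNAs listed as reported CPEB targets, 2 passed, Sumo2 and the dendritic microtubule gene Map2 (2.43 ± 0.35, adjusted p = 0.0419), and 7 (36.8%, where all genes had 14.3%) were 2-fold higher. The second probe set of Map2 split between the pools, with -1.17 in HD and 2.67 in WT. The beta-catenin gene Ctnnb1 (2.08 ± 0.52, adjusted p = 0.116) and Stat5b (2.83 ± 0.60, adjusted p = 0.0863) did not pass, but all of their other probe sets above 4.23 agreed at 2-fold. The dimmest of these probe sets of Ctnnb1 passed the filter through its CPEB4 values, so its agreement is partly set by it.

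Of 206 genes of the translation machinery 3 were higher by limma (1.46%, below the 2.33% of all genes) and 0 lower. At 2-fold higher were 43 (20.9%, where all genes had 14.3%). The 3 higher by limma were Eif1ax, an initiation factor of start codon scanning that passed the filter through its CPEB4 values (4.12 ± 0.43, adjusted p = 0.0367), Etf1, the release factor that reads stop codons (4.09 ± 0.57, adjusted p = 0.0406), and the ribosomal protein gene Rps19 (3.53 ± 0.50, adjusted p = 0.0411). Eif2s3x, a subunit of the factor that carries the initiator tRNA, had a larger difference (5.51 ± 1.48, adjusted p = 0.129) that did not pass. It stood at 9.16 (HD) and 8.28 (WT) with CPEB4, against 3.23 and 3.20 with IgG, with CPEB1 at 3.32 in HD and 8.50 in WT, and the mean of the 6 arrays without CPEB4 was below 4.23.

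Cytosolic ribosomal protein genes were abundant (median input level 9.44) and shifted as a class rather than singly. Of 67 measured, 54 were above IgG in both pools (33.8% of all genes were), 20 by 2-fold (29.9%), and 1 passed. The class median was 1.45 in HD and 0.60 in WT and turned to -0.31 under cyclic loess, so its direction depends on the scaling. These genes have many near-identical copies, which probe sets may not separate. The 68 mitochondrial ribosomal proteins had 0 calls and 16.2% at 2-fold, and 29 were above IgG in both pools. Their median of 0.26 turned to -0.17 after quantile normalization. The subunits of respiratory complex I (4 of 39 at 2-fold, 10.3%) and of complexes II to V (2 of 45, 4.44%) had 0 calls each, although their median input levels were 7.85 and 7.57. The pool medians had opposite signs in both classes, with 0.78 in HD and -0.17 in WT for complex I and 0.38 in HD and -0.05 in WT for the others. All genes had -0.12 in HD and -0.06 in WT, and some other classes had opposite signs too. Their medians over both pools, 0.45 and 0.22, turned to -0.18 and -0.50 under cyclic loess and to -0.33 and -0.61 after quantile normalization.

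SUMO and ubiquitin genes included some of the largest differences. Beside Sumo2, the related modifier Sumo3 stood at 8.50 (HD) and 7.24 (WT) with CPEB4, against 3.64 and 3.71 with IgG (4.19 ± 0.60, adjusted p = 0.0419). Of 12 genes of the SUMO pathway these 2 passed and 4 were 2-fold higher (33.3%), among them Sae1, a subunit of the SUMO-activating enzyme (2.15 ± 1.32, adjusted p = 0.346), whose second probe set gave 3.23 in HD and 3.56 in WT. Of 24 ubiquitin-conjugating enzymes 1 passed, Ube2w (2.96 ± 0.45, adjusted p = 0.0447), and 9 were 2-fold higher (37.5%), with Ube2k (2.83 ± 0.66) and Ube2h (2.76 ± 0.50) next in size. A second probe set agreed in 1 of the 5 enzymes at 2-fold that had one, Ube2h.

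Phosphatases and kinases of neuronal signalling were 2-fold higher more often than they passed. Of 20 subunits of protein phosphatases 2, 4, 5 and 6, the catalytic subunit gene Ppp6c passed, at 6.90 (HD) and 7.27 (WT) with CPEB4, against 3.55 and 3.78 with IgG (3.42 ± 0.50, adjusted p = 0.0429), and 8 were 2-fold higher (40.0%). Ppp6c was tested through its CPEB4 values, and its second probe set gave 0.42 in HD and 2.66 in WT. A second probe set agreed in 2 of the 5 genes at 2-fold that had one. Ppp2ca, the catalytic subunit of phosphatase 2A (2.03 ± 0.40, adjusted p = 0.0766), and its regulatory subunit Ppp2r5c (1.78 ± 0.63, adjusted p = 0.193) were those 2. Ppp6r3, a regulatory subunit of phosphatase 6, had the largest difference of the class and did not pass (4.23 ± 0.68, adjusted p = 0.0517), and 2 of its 3 other probe sets above 4.23 lay below IgG in both pools (-0.16 and -0.44 in HD, -0.64 and -0.46 in WT). Of 22 protein kinase A and C subunits and anchors 0 passed and 7 were 2-fold higher (31.8%). Prkacb, a catalytic subunit of protein kinase A, had the largest difference (4.18 ± 0.98, adjusted p = 0.101), and Prkca, Prkcb and Prkaca had agreeing second probe sets.

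The chromatin and autism classes share members. Of 41 histone lysine methyltransferases and demethylases, Kmt2c, which methylates lysine 4 of histone H3 at enhancers (2.27 ± 0.28, adjusted p = 0.0367), and Smyd3 (1.84 ± 0.25, adjusted p = 0.0385) passed, and 16 were 2-fold higher (39.0%). A second probe set agreed in 1 of the 7 at 2-fold that had one, and neither of the 2 others of Kmt2c did (0.07 and 1.76 in HD, 2.16 and -0.69 in WT). Kmt2d had a larger difference that did not pass (3.97 ± 0.84, adjusted p = 0.0844). Of 36 autism genes 2 passed, Tnrc6b and Kmt2c, and 15 (41.7%) were 2-fold higher, with a median of 1.16 in HD and 1.43 in WT. A second probe set agreed in 2 of the 11 autism genes at 2-fold that had one, among them the transcription factor gene Tcf4 (1.36 in HD and 2.20 in WT). Second probe sets lay below IgG in both pools in 3 of the 11, among them those of the autophagy scaffold gene Wdfy3 (-0.35 in HD and -0.78 in WT).

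Of 29 autophagy genes 2 passed and 10 were 2-fold higher (34.5%), of which 6 had a second probe set, agreeing in 1 and below IgG in both pools in 2. Becn1, a subunit of the lipid kinase that starts autophagosomes, stood at 7.41 (HD) and 8.24 (WT) with CPEB4, against 4.75 and 4.30 with IgG (3.30 ± 0.44, adjusted p = 0.0379). Atg13, of the kinase complex upstream, differed by 2.31 ± 0.34 (adjusted p = 0.0445), with a second probe set at -0.47 in HD and 1.97 in WT. The phosphoinositide reader Wipi2 (3.39 ± 0.55, adjusted p = 0.0521) did not pass. The class median was lower than these, 0.31 in HD and 0.94 in WT. Of 11 septins, GTP-binding proteins that form filaments at membranes, 0 passed and 4 were 2-fold higher (36.4%), led by Septin2 (2.70 ± 0.59, adjusted p = 0.0896).

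Of 276 genes in the synapse classes, with each counted once, 12 were higher by limma (4.35%), 0 lower, and 61 (22.1%) were 2-fold higher, where all genes had 2.33% and 14.3%. Among glutamate receptors, Grm5, the mGluR5 receptor that acts through Gq, stood at 8.48 (HD) and 10.22 (WT) with CPEB4, against 3.76 and 5.17 with IgG (4.89 ± 0.52, adjusted p = 0.0367). Grm3, at 6.4 (HD) and 8.56 (WT), against 3.83 and 4.35 with IgG, did not pass (3.39 ± 0.54, adjusted p = 0.0506), nor did Grm4 (2.86 ± 0.75, adjusted p = 0.124). Thus 3 of the 4 measured metabotropic receptors were 2-fold higher in both pools, in each case with the higher CPEB4 value in WT. Of 15 ionotropic glutamate receptors 0 passed and 3 were 2-fold higher, the AMPA subunit Gria2 (3.18 ± 0.72, adjusted p = 0.0964), the kainate subunit Grik5 (2.75 ± 0.49, adjusted p = 0.0622) and the NMDA subunit Grin2b (1.79 ± 0.34, adjusted p = 0.0694). Second probe sets gave 0.87 in HD and -0.96 in WT for Gria2, and 0.87 in HD and 1.72 in WT for Grin2b. Gabra2, a GABA-A receptor subunit, stood at 7.66 (HD) and 8.53 (WT) with CPEB4, against 4.47 and 3.73 with IgG (4.0 ± 0.45, adjusted p = 0.0367), and 3 of 7 measured subunits were 2-fold higher.

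On the presynaptic side 3 of 42 vesicle and active zone genes passed and 13 were 2-fold higher (31.0%). Those that passed were Erc2, an active zone scaffold (3.25 ± 0.32, adjusted p = 0.0354), whose 6 arrays without CPEB4 all lay below 4.23, Syt4, a synaptotagmin (2.67 ± 0.34, adjusted p = 0.0368), and Syngr3, a vesicle protein (2.22 ± 0.29, adjusted p = 0.0374). The second probe set of Syngr3 gave -0.46 in HD and 1.84 in WT. Napb, of vesicle fusion, showed how far the pools could part: it stood at 8.32 (HD) and 9.91 (WT) with CPEB4, against 3.31 and 7.89 with IgG (3.51 ± 0.94, adjusted p = 0.129). Of 30 postsynaptic scaffold genes 1 passed, Lin7a, which tethers receptors through a PDZ domain, at 9.05 (HD) and 9.58 (WT), against 5.56 and 5.25 with IgG (3.91 ± 0.44, adjusted p = 0.0367). The class had 20 genes above IgG in both pools and 0 below in both. Its median of 0.90 in each pool became 0.13 over both pools after quantile normalization. Arc, an activity-induced gene of receptor uptake, stood at 10.07 (HD) and 10.36 (WT), against 6.37 and 7.11 with IgG, and did not pass (3.48 ± 0.77, adjusted p = 0.093).

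Adhesion molecules and channels followed. Of 30 synaptic adhesion genes Cadm4 passed (2.52 ± 0.31, adjusted p = 0.0367) and 7 were 2-fold higher (23.3%), with a median of 0.92 in HD and 0.61 in WT. Of 52 potassium channel genes Kcnip2, a subunit of A-type channels (2.33 ± 0.32, adjusted p = 0.0401), and Hcn2, a pacemaker channel (1.94 ± 0.27, adjusted p = 0.0406), passed. The class share at 2-fold was 15.4%, and 2 further probe sets of Kcnip2 did not rise with it (-0.72 and -0.39 in HD, -0.49 and 0.11 in WT). Cacna2d2, an auxiliary calcium channel subunit, passed among 26 calcium and sodium channel genes (2.02 ± 0.29, adjusted p = 0.0411), but another of its probe sets, almost as bright, was below IgG in both pools (-0.64 in HD and -0.11 in WT). Among 49 genes of axon guidance the semaphorin gene Sema4d (2.92 ± 0.44, adjusted p = 0.045) and the plexin gene Plxnb2 (1.86 ± 0.26, adjusted p = 0.0411) passed. The second probe set of Sema4d gave -0.22 in HD and 0.85 in WT. The class share at 2-fold was 14.3%, as over all genes. Cadherins had 0 calls and likewise 14.3%.

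Cell type markers were compared because the striatum holds several cell types. Between the HD and WT pools, fewer cells of a type and less RNA per cell cannot be told apart. The CPEB4 and IgG fractions of a pool came from the same tissue. Of 30 markers of medium spiny neurons 2 passed, Tmem158 (2.55 ± 0.27, adjusted p = 0.0367) and Kcnip2, and 9 were 2-fold higher (30.0%), where all genes had 2.33% and 14.3%. Neither other probe set of Tmem158 was 2-fold higher in both pools (0.40 and -0.37 in HD, 1.74 and 0.42 in WT). The markers had a median input level of 8.01, within the part of most input RNA, in which 26.5% of genes were 2-fold higher. Meis2, a homeobox transcription factor of the lineage, stood at 9.30 (HD) and 10.40 (WT) with CPEB4, against 4.09 and 7.10 with IgG, and did not pass (4.26 ± 0.95, adjusted p = 0.0943). Penk, the enkephalin gene of the indirect pathway, stood at 9.88 (HD) and 10.99 (WT), against 9.96 and 11.03 with IgG (-0.06 ± 0.25), and so did not separate CPEB4 from IgG. The class median was 1.22 in HD and 0.94 in WT.

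Other cell types gave few calls. Mef2c, a transcription factor on the list of cortical excitatory neurons, passed (3.01 ± 0.37, adjusted p = 0.0367), though its second probe set gave -0.05 in HD and 0.55 in WT. Of the 12 members of that list 3 were 2-fold higher. Of those, Camk2a (1.72 ± 0.55, adjusted p = 0.168), turned to -0.14 under cyclic loess. Astrocyte genes had 0 of 18 higher by limma and 3 at 2-fold, oligodendrocyte genes 0 of 13 and 2, and their medians over both pools were 0.64 and 0.38 (-0.01 and 0.10 after quantile normalization). Of 15 endothelial and mural genes Slc2a1 passed, at 8.13 (HD) and 9.05 (WT) with CPEB4, against 4.93 and 5.33 with IgG (3.46 ± 0.49, adjusted p = 0.0411), while 9 of the 15 were below IgG in both pools.

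**Figure D5:**
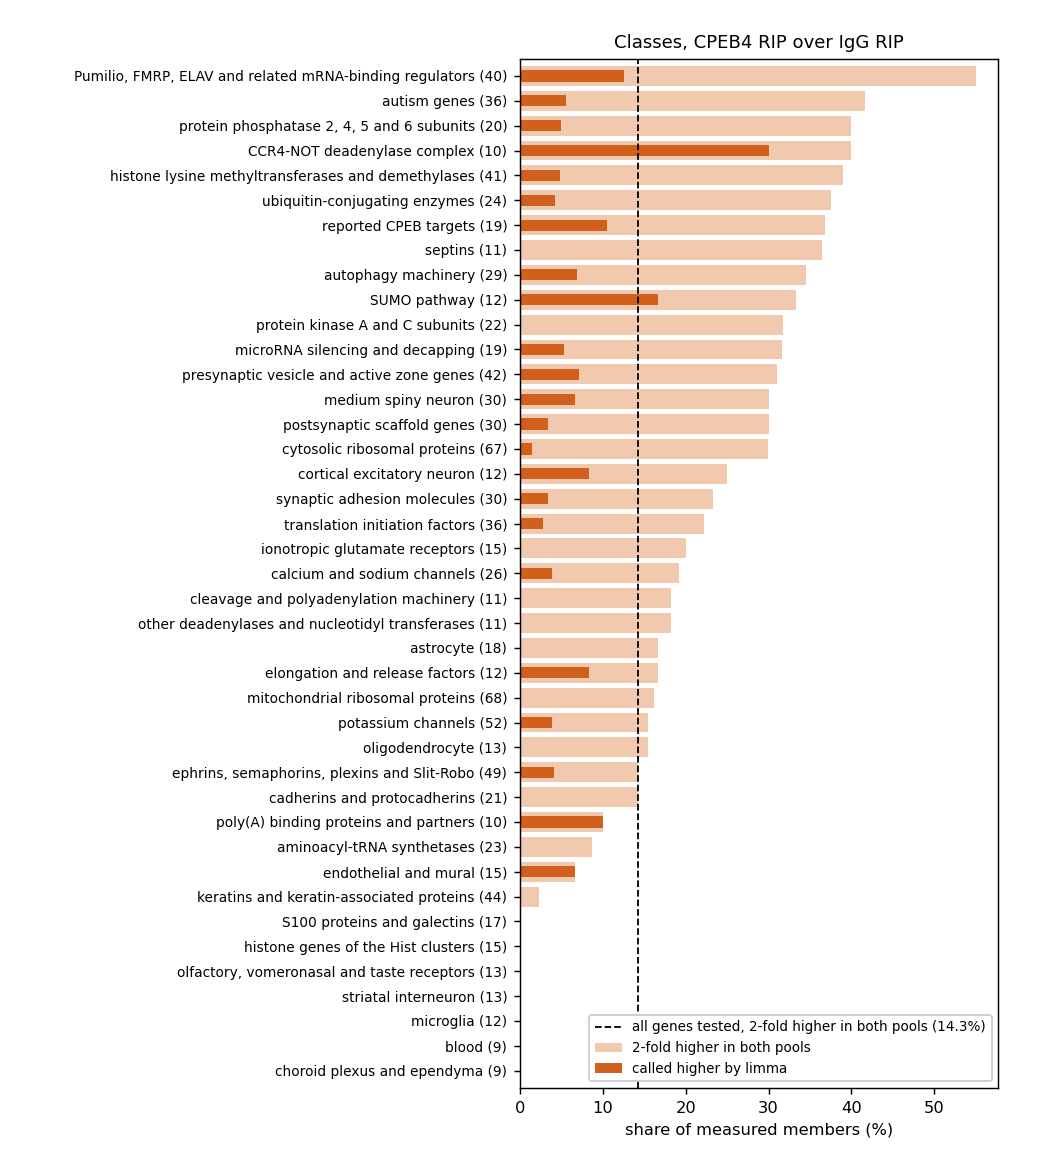
Share of measured members (horizontal axis, %) that were 2-fold higher in both pools (pale bars) and higher by limma (dark bars) for each class with at least 8 measured genes, whose number is in brackets. The dashed line marks the 14.3% of all genes; mRNA-binding regulators reach 55.0% and 7 classes at the foot have no member at 2-fold.

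At the other end, 7 classes had 0 members 2-fold higher in both pools. These were S100 proteins and galectins (17 measured), histone genes of the Hist clusters (15), olfactory, vomeronasal and taste receptors (13), striatal interneuron markers (13), microglia (12), blood (9) and choroid plexus and ependyma (9). Keratins and their associated proteins had 1 of 44, Krt10 (2.49 ± 0.41, adjusted p = 0.0552), with 40 of 44 below IgG in both pools. The median of the keratins was -0.46 in HD and -0.55 in WT, and that of the olfactory and taste receptors -0.61 and -0.85. Median input levels of these 8 classes ran from 5.10 to 6.73, where all genes had 5.55. The part of array background in these values was not tested. The microglial median of -0.15 turned to 0.12 under cyclic loess and 0.02 under median centring. Csf1r, the receptor that microglia depend on, was the marker 2-fold lower, at 6.77 (HD) and 6.42 (WT) with CPEB4, against 8.30 and 7.65 with IgG (-1.38 ± 0.32, adjusted p = 0.098).

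The 5 genes lower with CPEB4 were high on the IgG arrays. Lgals2, a galectin, stood at 5.14 (HD) and 4.81 (WT) with CPEB4, against 10.58 and 9.76 with IgG (-5.19 ± 0.28, 36.6-fold lower, adjusted p = 0.0259). The inputs held 5.50 in HD and 5.28 in WT, and its second probe set gave -0.75 in HD and -1.30 in WT. Xbp1, which drives genes of the unfolded protein response, stood at 4.85 (HD) and 3.82 (WT), against 8.33 and 6.50 with IgG (-3.08 ± 0.44, adjusted p = 0.0411), with a second probe set at -0.65 in HD and 0.23 in WT. For both genes the IgG values stood above those of the other 3 fractions. Without its IgG arrays the mean of Xbp1 was below 4.23, so Xbp1 passed the filter through its IgG values. The filter thus had a part in the direction of that gene.

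Dus3l, a tRNA dihydrouridine synthase, differed by -2.50 ± 0.31 (adjusted p = 0.0367), the calcium-binding gene S100a11 by -2.21 ± 0.34 (adjusted p = 0.0485) and the germ cell gene Dppa2 by -1.84 ± 0.28 (adjusted p = 0.0447), each with no second probe set above 4.23. Dus3l was also below its input, at 7.69 (HD) and 7.13 (WT), against 8.89 and 7.92, as was S100a11, while Dppa2 was above its input in both pools. Among the 113 genes 2-fold lower in both pools, IgG exceeded input in both pools in 95 and was the highest of all 4 fractions in both pools in 85. A second probe set agreed in 1 of 34 that had one, Relch (-1.61 in HD and -1.07 in WT, second probe set -2.25 and -2.05), named after its values were seen, and lay above IgG in both pools in 13.

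Where CPEB4 differed from the other CPEB antibody was tested directly. By limma 16 genes were higher with CPEB4 than with CPEB1 (0.141% of genes tested) and 0 were lower, where 1068 and 672 had an unadjusted p under 0.05, and 15 of the 16 were also higher than IgG. Among the 16, Acsl3, Fam76b, Fam98b, Fnbp4, Gmfb, Ivns1abp and Ugcg passed the filter through their CPEB4 values. The filter thus had a part in the direction of these genes. Both antibodies were set against the same IgG arrays, so their differences from IgG are not independent. Across the 264 genes the median difference was 2.07 for CPEB4 minus CPEB1 and 0.54 for CPEB1 minus IgG. In 235 of them CPEB4 was above CPEB1 in both pools and in 12 below in both. Over all 11345 genes CPEB4 was above CPEB1 in both pools in 2836 genes and below in both in 5297, with a median of -0.21. The 264 were chosen for high CPEB4 values, which bears on their place above CPEB1. Cds2 was not among the 16 (CPEB4 minus CPEB1 -0.52 ± 0.53).

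Among the 16 were genes with CPEB1 close to IgG. Ddit4, which stress induces and which dampens mTOR, stood at 9.17 (HD) and 9.64 (WT) with CPEB4, against 4.92 and 4.91 with CPEB1 and 4.84 and 5.89 with IgG (CPEB4 minus CPEB1 4.48 ± 0.33, adjusted p = 0.0441). G3bp1 was the mRNA-binding regulator on this list (2.95 ± 0.25, adjusted p = 0.0441). Cirbp, the cold-inducible RNA-binding protein, was the gene that did not pass over IgG, at 7.6 (HD) and 7.30 (WT) with CPEB4, against 4.30 and 4.20 with CPEB1 (3.20 ± 0.28, adjusted p = 0.0441) and 5.69 and 5.70 with IgG (1.76 ± 0.28, adjusted p = 0.0506). Others were the lipid enzyme genes Acsl3 (3.61 ± 0.30) and Ugcg (3.98 ± 0.27), both tested through their CPEB4 values, the myosin phosphatase subunit gene Ppp1r12a (3.14 ± 0.24) and the gamma-secretase subunit gene Aph1a (3.10 ± 0.25). The 16 fell to 0 without any 1 array and to 1 after quantile normalization. Htt, the huntingtin gene, did not pass with CPEB4 over IgG, at 7.22 (HD) and 6.91 (WT), against 5.84 and 6.06 (1.11 ± 0.41, adjusted p = 0.203).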

How the data were processed

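The deposited log2 values, 1 per Affymetrix probe set, come from RMA, per the submitters' processing notes. RMA usually corrects background, normalizes and sums up the probes of a set. Its version, its settings, whether the 8 arrays were normalized together and the annotation's build are stated in no source used here, and the SD over all probe sets ran from 1.36 to 1.80 between arrays. Per the labels' protocols RNA was amplified over 27 cycles and 8 µg of cDNA went on each array. Values were used as deposited. Of 45101 probe sets 28898 had 1 gene symbol, 551 several and 15652 none, and 28689 were matched through the RefSeq table of GRCm38.p6. A gene was represented by its brightest single-symbol probe set, with the filter given above. Columns of other samples numbered 0.

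CPEB4 RIP minus IgG RIP was fitted by lmFit and eBayes of limma 3.58.1 (R 4.3.3; two-sided, Benjamini-Hochberg over 11345 genes) on all 8 arrays, with fraction and genotype pool, the block, leaving 3 residual degrees of freedom and 2.29 from the prior. An error is the SE of that model. The same genotype pool supplied all fractions, which is why pools were paired. The pools differ in genotype, and the block takes out the mean difference between them. The p-values therefore measure how far differences between fractions vary from pool to pool, over all 4 fractions. They do not measure the spread between animals, and a difference of HD from WT was not tested. The number of arrays limits the precision.

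The comparison, its 93 gene classes and the tests were chosen with earlier results of these data known, so classes are described by counts and medians without a test. Named genes are all those called lower, the 25 largest called higher with an agreeing second probe set, up to 6 members for each class described (called, then 2-fold in both pools), Cpeb1 to Cpeb4 and Htt, passing over clone identifiers. Classes described are the 12 highest and 8 lowest by share at 2-fold with at least 8 genes, and those of tail factors, translation, synapse and cell types. Classes or genes named beyond that were chosen after their values were seen. Alternatives were other scalings, filters, probe set rules, fold thresholds, models and left-out arrays. No transcript sequence was used here, so binding elements were not searched.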

Additional observations from a re-analysis of the deposited data

Results flagged for a closer look

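In 5 classes listed here, the median CPEB4 RIP minus IgG RIP difference had opposite signs in the pools. Each pool has 1 CPEB4 array and 1 IgG array, and the difference between pools was not tested. The respiratory complexes among them are outside the rule for classes described. Other classes, such as F-box proteins and nuclear receptors, also had opposite signs and were not listed. Striatal interneuron markers (13 genes) had medians of -0.15 and 0.19 in HD and WT. Aminoacyl-tRNA synthetases (23 genes), which charge tRNAs, had -0.11 and 0.20. Calcium and sodium channels (26 genes) had 0.48 and -0.03. Complex I subunits (39 genes) had 0.78 and -0.17, and subunits of complexes II to V (45 genes) 0.38 and -0.05. The median of all genes was -0.12 in HD and -0.06 in WT.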

How the results depend on the processing

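With the 4 arrays alone, another model, another filter, or a CPEB1 or input array left out, each gene's difference is the same by design. Its sign could not change there. Under the other alternatives that tested them, all 264 genes higher with CPEB4, chosen for their differences on these same arrays, kept their sign. Their number was 232 under cyclic loess (202 of them shared with the 264), 299 under median centring, 210 without a filter, 272 with a gene's mean probe set (151 shared), 341 with no replicate block (221 shared) and 231 with trended robust eBayes, but 8 after quantile normalization, 133 (all shared) with the 75th percentile filter, where fewer genes are tested, 0 with the 4 arrays alone, and 0 to 273 with 1 array left out (0 without any input, CPEB4 or IgG array, 273 without either CPEB1 array). A fraction left with 1 array is assumed to vary like the others. The 5 genes lower became 18 under loess, 1 after quantile normalization, 2 with the stricter filter, 0 with 4 arrays, 0 to 1 with 1 array left out and 7 with no replicate block. The unadjusted split of 1781 higher and 817 lower became 1131 and 1484 after quantile normalization, 1632 and 745 under loess, and 1958 and 494 under median centring. The 1627 genes at 2-fold became 944 after quantile normalization and 920 at 3-fold. The 113 lower became 287 under loess, 689 after quantile normalization, 62 under centring, 74 with the stricter filter, 67 with mean probe sets, 966 at 1.5-fold and 18 at 3-fold. Second probe sets agreed in 159 genes in place of 319 after quantile normalization, in 549 at 1.5-fold and in 145 at 3-fold. For CPEB4 over CPEB1, whose alternatives were chosen after seeing the data, 16 became 61 under loess, 1 after quantile normalization, 26 under centring, 0 with the stricter filter, 1 with mean probe sets, 81 with no replicate block, 75 with trended robust eBayes and 0 with any array left out. Of 92 class medians, 26 turned sign after quantile normalization, 12 under loess and 6 under centring. Among the named genes Camk2a alone turned sign, to -0.14 under loess. The causes were not tested. Genes with IgG near the array background limit the size of a difference that can be read.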
